A study of Mus musculus with 9 samples.

Results

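The immunity-related GTPases (IRGs) are described here through 7 mouse genes, Irgm1, Igtp, Irgm2, Iigp1, Tgtp1, Tgtp2 and Ifi47, taken by name out of the 34745 genes of the deposited table. All 7 were detected in every tumour and passed the filter on low counts. They were measured by RNA sequencing in 9 tumours grown from LLC cells, the Lewis lung carcinoma line of the mouse, under the skin of male C57BL/6 hosts whose genotype label is WT. The hosts' age is labelled 6 to 8 with no unit, and mice were randomised when tumours were near 100 mm3. The 3 groups of 3 tumours had received BTZ (bortezomib, a proteasome inhibitor, 0.5 mg/kg) together with an anti-PDL1 antibody (10 mg/kg), the anti-PDL1 antibody by itself (10 mg/kg), or an isotype control antibody (10 mg/kg), all by the intraperitoneal route. Every animal therefore carried LLC tumour cells and received an antibody. A group with BTZ and no antibody was not analysed here, and the time between treatment and collection is not given in the sources used here. The control is called isotype in the treatment label and blank in the library titles.

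IRG proteins are large GTPases that mouse cells make after exposure to interferons, above all interferon-gamma. Irgm1, Igtp (also called Irgm3) and Irgm2 are the regulators, which sit on the cell's own membranes and hold the other members in an inactive state. Iigp1 (Irga6), the Tgtp proteins (Irgb6) and Ifi47 (Irgd) are effectors, which gather on and break the vacuoles around parasites and bacteria such as Toxoplasma and Chlamydia. In a tumour without such a pathogen their transcripts are commonly read as a record of interferon exposure.

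Of the 7 genes 6 lie on chromosome 11 in 2 stretches, on the build mm10 and with the coordinates of the deposited table. Irgm1 (ENSMUSG00000046879) is at chr11:48861968-48871683 on the minus strand. It is followed by Tgtp1 (ENSMUSG00000078922, chr11:48985327-48994172, minus), Tgtp2 (ENSMUSG00000078921, chr11:49057194-49064206, minus) and Ifi47 (ENSMUSG00000078920, chr11:49076587-49096974, plus). Igtp (ENSMUSG00000078853, chr11:58199556-58207591, plus) lies almost wholly inside the locus of Irgm2 (ENSMUSG00000069874, chr11:58199618-58222779, plus). Iigp1 lies apart from them, on another chromosome.

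Promoters are shown because interferons reach these genes through short sites near the start, and because the members were measured to vary together. RefSeq on the build GRCm38.p6 gave a promoter for 6 of the 7 genes, and none is printed for Iigp1. Each sequence below runs 5′ to 3′ over the 120 bases before the start of transcription, on the strand of the gene. The starts of Irgm1, Irgm2 and Tgtp1 lie inside the deposited loci, so other transcripts of these genes may start elsewhere. Capitals mark matches to GAAANNGAAA, the core of an interferon-stimulated response element (ISRE).
Irgm1, chr11:48871421-48871540, minus: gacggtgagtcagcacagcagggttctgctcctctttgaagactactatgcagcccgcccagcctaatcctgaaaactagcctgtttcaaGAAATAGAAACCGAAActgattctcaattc
Igtp, chr11:58199436-58199555, plus: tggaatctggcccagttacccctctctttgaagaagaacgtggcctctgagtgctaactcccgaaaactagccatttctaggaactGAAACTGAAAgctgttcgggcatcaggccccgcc
Irgm2, chr11:58214857-58214976, plus: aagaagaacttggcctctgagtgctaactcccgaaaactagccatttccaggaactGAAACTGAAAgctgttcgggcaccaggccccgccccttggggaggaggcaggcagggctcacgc
Tgtp1, chr11:48992247-48992366, minus: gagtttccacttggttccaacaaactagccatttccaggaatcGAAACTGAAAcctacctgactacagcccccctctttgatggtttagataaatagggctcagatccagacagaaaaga
Tgtp2, chr11:49064213-49064332, minus: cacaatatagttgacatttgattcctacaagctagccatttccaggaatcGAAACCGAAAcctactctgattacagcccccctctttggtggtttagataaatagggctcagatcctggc
Ifi47, chr11:49076467-49076586, plus: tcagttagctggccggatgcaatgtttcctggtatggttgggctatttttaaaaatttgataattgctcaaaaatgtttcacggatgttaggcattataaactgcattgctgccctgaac

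The window searched for motifs ran from 250 bases before to 50 bases after the start, on both strands. GAAANNGAAA was found in 5 of the 6 promoters, against 3.44% of the 32851 RefSeq promoters of the same length. Irgm1 held 2 overlapping matches, 30 and 24 bases before the start. The match began 34 bases before the start in Igtp, 64 in Irgm2, 77 in Tgtp1 and 70 in Tgtp2. TTCNNNGAA, the letters of a gamma-activated site (GAS), was found in 4 of the 6, against 8.3% of all promoters. It read TTCTAGGAA in Igtp and TTCCAGGAA in Irgm2, Tgtp1 and Tgtp2, and in all 4 it began 11 bases before the ISRE-type match, so the motifs do not overlap. Ifi47 held neither set of letters in the window of this RefSeq start. Aligned end to end over the 120 printed bases, the Tgtp1 and Tgtp2 promoters were 78.1% identical over 128 columns, and the other pairs 46.5% to 62.5%. Such an alignment misses like stretches at different distances from the start. The Igtp and Irgm2 sequences share a nearly identical stretch that holds both motifs, shifted so that the ISRE-type match lies 34 and 64 bases before the start. The Tgtp1 and Tgtp2 sequences hold a closely similar stretch around both motifs. The motif matches and the spacing in these 4 genes are therefore not separate observations. These matches are descriptions of sequence and were not measured as binding.

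The libraries held between 18.52 M and 21.51 M counts in total, where M is mega, and the 7 genes together took 5521 to 8630 counts in BTZ+anti-PDL1 tumours, 5440 to 5922 in anti-PDL1 tumours and 1469 to 5372 in isotype tumours. Levels below are CPM, counts relative to the library total after scaling by the trimmed mean of M-values (TMM), unless another unit is named. The tumours carry the label lung adenocarcinoma as cell type, and of 8 markers of that cancer and of epithelium 6 had counts. Napsa, made by lung adenocarcinomas, was present at 4.16 to 8.96 CPM over the 9 tumours, the epithelial keratins Krt18 and Krt8 at 56.6 to 113 and 3.64 to 26.6 CPM, and the epithelial cadherin Cdh1 at 1.44 to 9.30 CPM. Krt19 ran from 0.0534 to 3.96 CPM and Epcam reached at most 0.247 CPM, while the lung markers Nkx2-1 and Sftpc had 0 counts in all 9. Markers of T cells (10 of 10), NK and cytotoxic cells (7 of 7), macrophages (10 of 10) and fibroblasts (6 of 6) were all detected. Each value is therefore a sum over tumour and host cells, in which fewer cells of a type and less RNA per cell cannot be told apart. Skeletal muscle markers summed to 692, 15.8 and 4.48 CPM in BTZ+anti-PDL1 tumours, 912, 95.2 and 185 in anti-PDL1 tumours, and 5.46, 6.24 and 2487 in isotype tumours.

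Irgm1 had the highest CPM of the 7 genes in all groups. This regulator, best known for its part in autophagy and resistance to mycobacteria, measured 88.4, 83.9 and 116 CPM in BTZ+anti-PDL1 tumours, 74.0, 74.9 and 77.7 in anti-PDL1 tumours, and 52.1, 30.6 and 77.4 in isotype tumours. All 3 BTZ+anti-PDL1 values lay above every value of both other groups. Igtp, a regulator of the endoplasmic reticulum and lipid droplets, measured 54.3, 45.2 and 70.3 CPM in BTZ+anti-PDL1 tumours, 36.6, 37.7 and 34.1 in anti-PDL1 tumours, and 25.8, 9.65 and 42.8 in isotype tumours. It had the same ordering, with no overlap between the BTZ+anti-PDL1 tumours and the rest. Irgm2, a regulator found at the Golgi apparatus, measured 52.9, 42.3 and 66.5 CPM in BTZ+anti-PDL1 tumours, 44.9, 45.4 and 40.1 in anti-PDL1 tumours, and 24.4, 12.3 and 45.5 in isotype tumours. Here the groups overlapped in all 3 comparisons.

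Among the effectors Iigp1, which loads onto the Toxoplasma vacuole, was the most abundant. The gene (ENSMUSG00000054072) is at chr18:60376029-60392627 on the plus strand of mm10. It measured 79.6, 69.0 and 109 CPM in BTZ+anti-PDL1 tumours, 66.3, 68.1 and 72.1 in anti-PDL1 tumours, and 40.9, 10.4 and 60.0 in isotype tumours. All isotype values lay below all values of both other groups, which overlapped each other. Tgtp2 had the same pattern at a lower level, with 22.0, 23.8 and 36.0 CPM in BTZ+anti-PDL1 tumours, 22.6, 25.4 and 22.0 in anti-PDL1 tumours, and 9.86, 3.76 and 21.2 in isotype tumours. Tgtp1 measured 14.2, 10.4 and 21.2 CPM in BTZ+anti-PDL1 tumours, 9.95, 10.7 and 10.3 in anti-PDL1 tumours, and 6.66, 2.13 and 10.1 in isotype tumours. The BTZ+anti-PDL1 and isotype values of Tgtp1 did not overlap, and the anti-PDL1 values overlapped with both. Ifi47, the Irgd effector, measured 25.5, 20.4 and 30.5 CPM in BTZ+anti-PDL1 tumours, 17.8, 19.5 and 20.9 in anti-PDL1 tumours, and 9.92, 3.81 and 23.8 in isotype tumours. Its groups overlapped in every comparison.

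**Figure D1:**
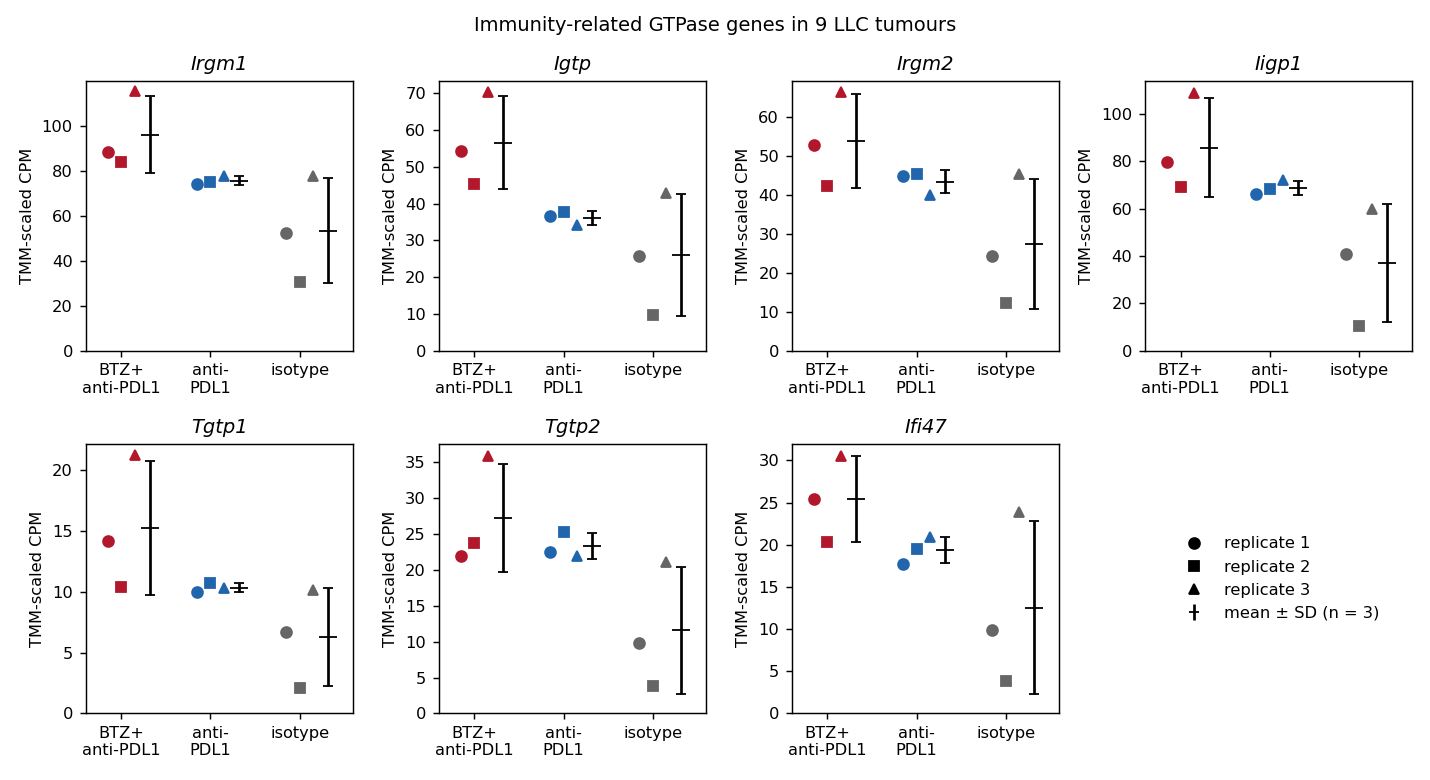
Level of each of the 7 IRG genes as TMM-scaled CPM (vertical axes, each from 0) in the 9 tumours, by group along the horizontal axis, with the symbol giving the replicate number and the bar the mean ± SD of 3 tumours. BTZ+anti-PDL1 replicate 3 was the highest and isotype replicate 2 the lowest of the 9 tumours for all 7 genes, and the anti-PDL1 tumours lay close together.

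The same tumours stood at the ends of the range for all 7 genes. BTZ+anti-PDL1 replicate 3 was the highest of the 9 for 7 of 7 genes, isotype replicate 2 the lowest for 7 of 7, and isotype replicate 1 the second lowest for 7 of 7. The remaining isotype tumour, replicate 3, did not stand with them: it lay above all anti-PDL1 tumours for 3 genes and below all of them for 2. BTZ+anti-PDL1 replicate 1 lay above every anti-PDL1 tumour for 6 genes, and replicate 2 of that group for 2 genes. Summed over the 7 genes the level was 337, 295 and 449 CPM in BTZ+anti-PDL1 tumours, 272, 282 and 277 CPM in anti-PDL1 tumours, and 170, 72.7 and 281 CPM in isotype tumours. The group means of this sum were 360 ± 79.7, 277 ± 4.83 and 174 ± 104 CPM, in the same order of groups (SD, n = 3 each).

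The spread within groups also differed. The coefficient of variation of the 7 genes was 17.8% to 36.2% in BTZ+anti-PDL1 tumours, 2.58% to 8.10% in anti-PDL1 tumours and 43.9% to 82.0% in isotype tumours. The medians over 13237 genes with a mean of at least 1 CPM were 9.24%, 8.30% and 10.7% in the same groups. The IRG genes were thus more variable than the typical gene in the combination and isotype groups, and their median in anti-PDL1 tumours, 5.12%, was below it. Between the highest and the lowest tumour the genes differed by 3.78-fold (Irgm1), 5.40-fold (Irgm2), 7.28-fold (Igtp), 8.02-fold (Ifi47), 9.56-fold (Tgtp2), 9.98-fold (Tgtp1) and 10.4-fold (Iigp1), so the regulators spanned less than the effectors.

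**Figure D2:**
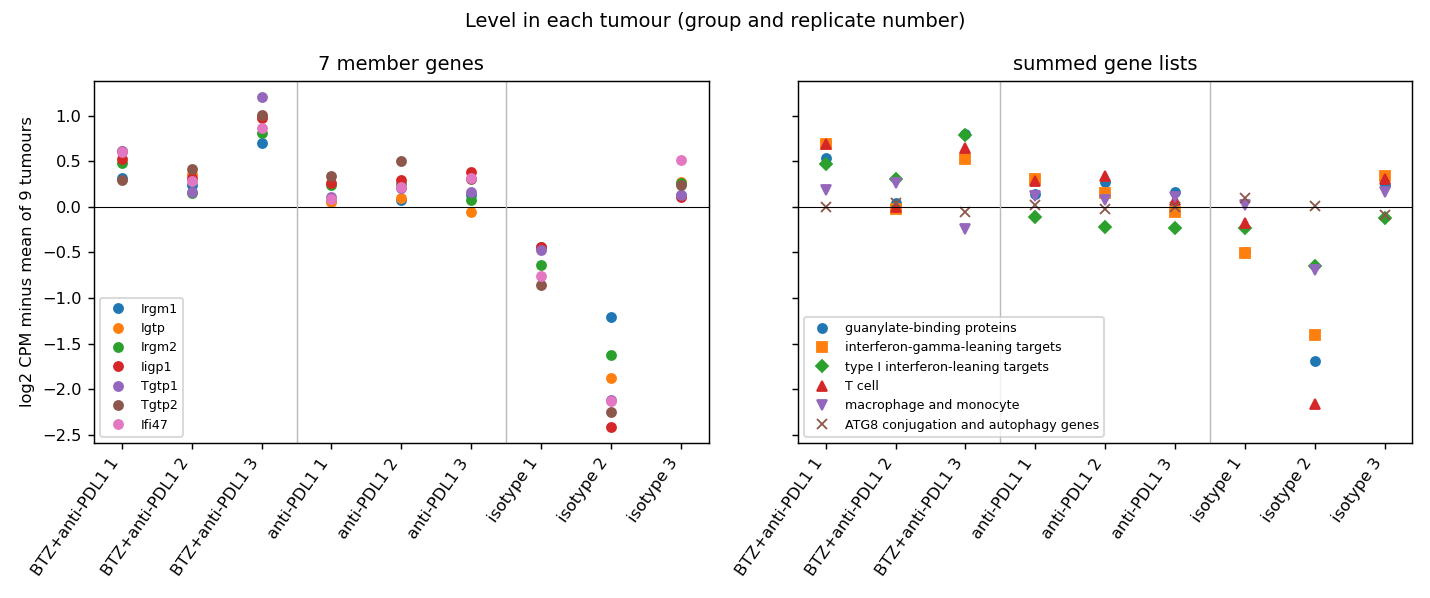
Level in each tumour on the log2 CPM scale, centred on the mean over all 9 (vertical axis), for the 7 IRG genes (left) and for the summed CPM of gene lists and cell markers (right), with tumours along the horizontal axis in groups split by grey lines. Isotype replicates 1 and 2 lay below the mean for all 7 genes. In isotype replicate 2 every list shown on the right, except the ATG8 conjugation and autophagy genes, was also at its lowest.

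Per length the order of the genes depended on which length was used. By CPM per kilobase of the longest coding transcript (GENCODE M21), Irgm1 was first in all 9 tumours, with 42.5 ± 7.56 in BTZ+anti-PDL1, 33.4 ± 0.861 in anti-PDL1 and 23.6 ± 10.4 in isotype tumours (SD, n = 3 each). On this scale Igtp (28.0 ± 6.28, 17.9 ± 0.916 and 12.9 ± 8.20) and Iigp1 (27.5 ± 6.65, 22.1 ± 0.951 and 11.9 ± 8.00) came next, in the same order of groups. Igtp and Iigp1 lay within each other's spread in BTZ+anti-PDL1 and isotype tumours, and Iigp1 was above Igtp in all 3 anti-PDL1 tumours. Irgm2 (15.3 ± 3.45, 12.3 ± 0.818 and 7.77 ± 4.76) and Ifi47 (14.4 ± 2.87, 10.9 ± 0.885 and 7.06 ± 5.79) followed, closer to each other than the sum of their SDs in each group. Tgtp2 (9.70 ± 2.70, 8.30 ± 0.642 and 4.13 ± 3.14) and Tgtp1 (5.40 ± 1.95, 3.66 ± 0.134 and 2.24 ± 1.42) were last in all 9 tumours. In the deposited FPKM values Iigp1 was instead first in 8 tumours, with mean FPKM of 27.7, 22.0 and 11.9, against 13.2, 10.3 and 7.30 for Irgm1. The length implied by the deposited FPKM was 7304 bases for Irgm1, whose longest coding transcript has 2259 bases, and 3121 bases for Iigp1, equal to its longest coding transcript. Over 11030 genes with several transcripts the implied length exceeded the longest transcript in 84.5%.

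BTZ+anti-PDL1 was set against anti-PDL1 to ask what BTZ added to the antibody. All 7 fold changes were positive and none passed the test. The log2 fold change was 0.65 ± 0.454 for Igtp, a 1.57-fold difference of 56.6 ± 12.7 CPM in BTZ+anti-PDL1 against 36.1 ± 1.85 CPM in anti-PDL1 tumours (adjusted p = 0.886, edgeR quasi-likelihood test with Benjamini-Hochberg adjustment over 14506 genes; ± after a log2 fold change is SE). Its 95% interval on the log2 scale ran from -0.41 to 1.71. The other regulators measured 0.35 ± 0.293 (Irgm1) and 0.31 ± 0.409 (Irgm2). The effectors measured 0.56 ± 0.478 (Tgtp1), 0.39 ± 0.540 (Ifi47), 0.32 ± 0.529 (Iigp1) and 0.23 ± 0.516 (Tgtp2). The adjusted p over the 7 genes ran from 0.886 to 0.969 in edgeR.

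In this comparison 0 of the 7 genes were called by edgeR at an adjusted p under 0.05, where 0.0138% of all genes tested were called. At an unadjusted p under 0.05 the number was also 0, against 3.15% of all genes that were higher at that level, and DESeq2 called 0 as well. The BTZ+anti-PDL1 values lay above all anti-PDL1 values for 2 of the 7 (Irgm1 and Igtp), against 7.33% of all genes tested. The median log2 fold change of the 7 genes was 0.35, a 1.27-fold difference, while that of all genes was 0.0029, and 7.08% of all genes had a fold change at least as large as that median. Without BTZ+anti-PDL1 replicate 3 the median was 0.19 and the log2 fold change of Tgtp2 was -0.02.

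BTZ+anti-PDL1 was set against isotype to give the combination against the control antibody. The 7 genes were 1.80-fold (Irgm1) to 2.42-fold (Tgtp1) higher in mean, again without a call. Tgtp1 averaged 15.3 ± 5.51 CPM in BTZ+anti-PDL1 and 6.31 ± 4.02 CPM in isotype tumours, a log2 fold change of 1.27 ± 0.488 (edgeR adjusted p = 0.55). Irgm1 averaged 96.0 ± 17.1 CPM in BTZ+anti-PDL1 and 53.4 ± 23.4 CPM in isotype tumours, a log2 fold change of 0.85 ± 0.296 with a 95% interval from 0.16 to 1.53 (edgeR adjusted p = 0.543). It had the smallest fold change of the 7 and also the smallest adjusted p. The log2 fold change was 1.12 ± 0.459 for Igtp, 0.98 ± 0.415 for Irgm2, 1.21 ± 0.540 for Iigp1, 1.23 ± 0.528 for Tgtp2 and 1.02 ± 0.549 for Ifi47, with adjusted p from 0.569 to 0.638 in edgeR.

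Against isotype, 0 of the 7 genes were called by edgeR, where 0.00689% of all genes were called, and 0 by DESeq2. At an unadjusted p under 0.05 edgeR gave 5 of the 7, against 4.42% of all genes that were higher at that level, and DESeq2 gave 6. The groups did not overlap for 5 of the 7 (Irgm1, Igtp, Iigp1, Tgtp1 and Tgtp2), against 6.96% of all genes. The median log2 fold change was 1.12 for the 7 genes and -0.0011 for all genes, and 0.855% of all genes had one at least as large as 1.12. The number at an unadjusted p under 0.05 was 0 without BTZ+anti-PDL1 replicate 3, 0 without isotype replicate 1, and 7 without isotype replicate 3. This number was 2 without the filter on low counts. It was also 2 without each anti-PDL1 tumour, which enters only the spread estimate. The unadjusted edgeR p was 0.0483 for Irgm2 and 0.0496 for Tgtp2, close to the threshold. The median log2 fold change was 0.73 without isotype replicate 2 and 1.74 without isotype replicate 3.

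Anti-PDL1 was set against isotype to give the antibody by itself. The log2 fold change was 1.01 ± 0.527 for Tgtp2, with 23.3 ± 1.80 CPM in anti-PDL1 and 11.6 ± 8.83 CPM in isotype tumours (edgeR adjusted p = 0.77). Iigp1 averaged 68.9 ± 2.97 CPM in anti-PDL1 and 37.1 ± 25.0 CPM in isotype tumours, a log2 fold change of 0.89 ± 0.537. Both are effectors, and both had anti-PDL1 values above all isotype values. The remaining log2 fold changes were 0.71 ± 0.487 (Tgtp1), 0.67 ± 0.414 (Irgm2), 0.63 ± 0.547 (Ifi47), 0.50 ± 0.295 (Irgm1) and 0.47 ± 0.457 (Igtp), and the adjusted p of the 7 genes ran from 0.77 to 0.863 in edgeR.

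Here too 0 of the 7 genes were called by edgeR, where 0.0138% of all genes were called, and 0 by DESeq2. At an unadjusted p under 0.05 edgeR gave 0, against 3.01% of all genes that were higher at that level, and DESeq2 gave 1. The groups did not overlap for 2 of the 7, against 6.08% of all genes. The median log2 fold change was 0.67 for the 7 genes and -0.0034 for all genes, and 2.77% of all genes had one at least as large as 0.67. It was 0.31 without isotype replicate 2 and 1.24 without isotype replicate 3, and without isotype replicate 3 also 7 of the 7 had an unadjusted p under 0.05. The 3 comparisons share groups, so their values are not independent of each other.

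**Figure D3:**
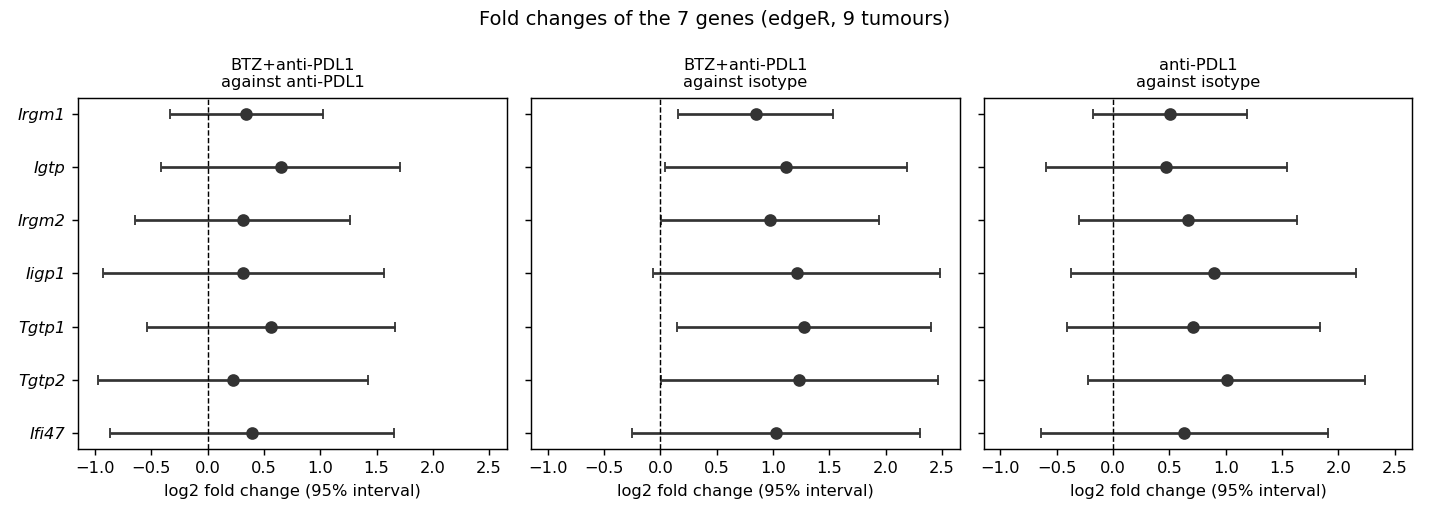
Log2 fold change of each IRG gene (points) with its 95% interval (bars) in the 3 comparisons, from 1 edgeR fit over 9 tumours, with the dashed line at no difference. All 21 points lie right of the line, all 7 intervals include 0 in BTZ+anti-PDL1 against anti-PDL1 and in anti-PDL1 against isotype, and 5 of 7 lie above 0 in BTZ+anti-PDL1 against isotype.

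Ratios of counts within a tumour show how the genes varied against each other, free of the total. Over the 21 pairs of genes the Pearson correlation of log2 CPM across the 9 tumours ran from 0.954 to 0.988, and from 0.947 to 0.987 after the group means were removed, as a description of values that share their libraries. The ratio of Irgm1 to Iigp1 counts was 1.11, 1.22 and 1.06 in BTZ+anti-PDL1 tumours, 1.12, 1.10 and 1.08 in anti-PDL1 tumours, and 1.27, 2.93 and 1.29 in isotype tumours. In isotype replicate 2 the regulator Irgm1 made up 42.1% of the counts of the 7 genes, and the effector Iigp1 14.4%. In the other 8 tumours these shares ran from 25.7% to 30.7% for Irgm1 and from 21.4% to 26.0% for Iigp1.

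The ratios that separated BTZ+anti-PDL1 from anti-PDL1 tumours all involved Igtp. The ratio of Igtp to Irgm2 counts was 1.03, 1.07 and 1.06 in BTZ+anti-PDL1 tumours, 0.816, 0.831 and 0.849 in anti-PDL1 tumours, and 1.06, 0.783 and 0.941 in isotype tumours. The combination tumours averaged 1.05 ± 0.0227 and the anti-PDL1 tumours 0.832 ± 0.0167, a 1.26-fold difference without overlap (exact two-sided permutation p = 0.1, the smallest that 3 against 3 tumours allow; 0.42 after Benjamini-Hochberg adjustment over 21 pairs). Of the 21 pair ratios 5 did not overlap between BTZ+anti-PDL1 and anti-PDL1. The others include Igtp over Iigp1 (0.661 ± 0.0189 against 0.526 ± 0.0461), over Tgtp2 (2.11 ± 0.314 against 1.55 ± 0.0686) and over Ifi47 (2.22 ± 0.0860 against 1.88 ± 0.221), with BTZ+anti-PDL1 before anti-PDL1. For BTZ+anti-PDL1 against isotype the number without overlap was 1, and for anti-PDL1 against isotype it was 10, with adjusted exact permutation p of at least 0.56 and 0.21. The Igtp ratios were singled out after their values were seen. These 5 ratios share the Igtp counts, so they are not separate observations. The share without overlap among ratios of other gene pairs was not counted.

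**Figure D4:**
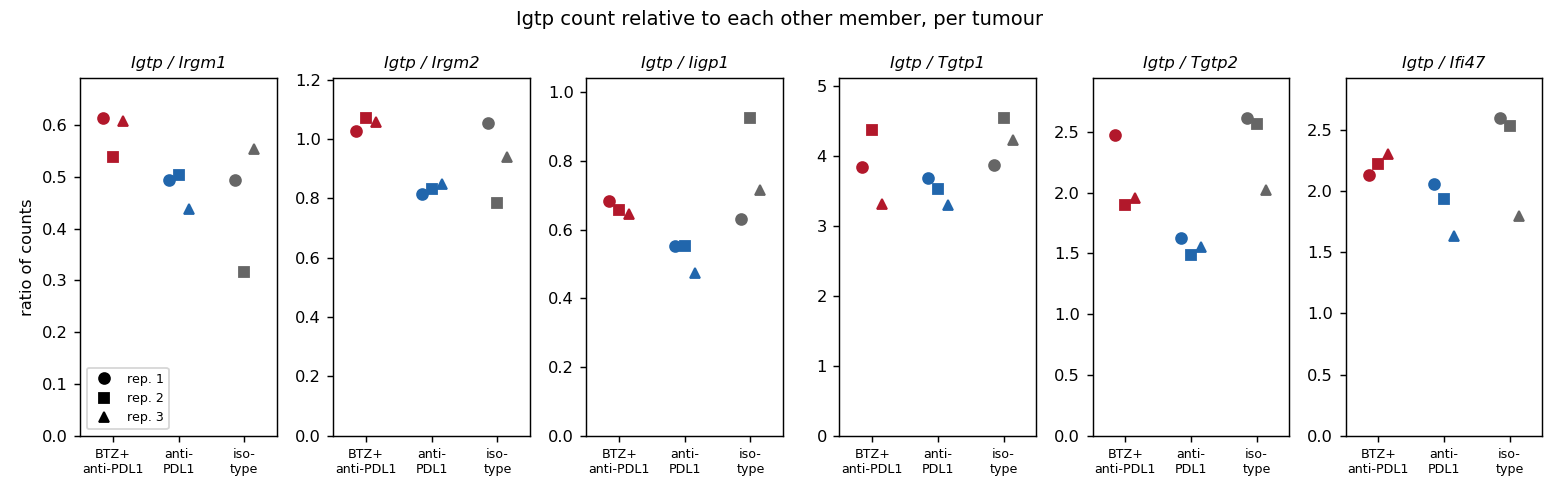
Ratio of Igtp counts to the counts of each other IRG gene (vertical axes, each from 0) in the 9 tumours, by group along the horizontal axis, with the symbol giving the replicate number. For Irgm1, Irgm2, Iigp1, Tgtp2 and Ifi47 all 3 BTZ+anti-PDL1 ratios lie above all 3 anti-PDL1 ratios, and for Tgtp1 they overlap.

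Some of these genes share sequence, which bears on how their counts divide. Of the 100-base windows in the GENCODE M21 transcripts of Tgtp1, 70.3% (2180 of 3102) also occur in Tgtp2, and 76.8% of those of Tgtp2 (2180 of 2839) occur in Tgtp1. The ratio of Tgtp2 to Tgtp1 counts was 1.55, 2.30 and 1.69 in BTZ+anti-PDL1 tumours, 2.27, 2.37 and 2.13 in anti-PDL1 tumours, and 1.48, 1.77 and 2.09 in isotype tumours. The split between these genes is uncertain, and summed into 1 gene their log2 fold changes were 0.34 in BTZ+anti-PDL1 against anti-PDL1, 1.25 in BTZ+anti-PDL1 against isotype and 0.91 in anti-PDL1 against isotype (edgeR adjusted p = 0.954, 0.572 and 0.79). Igtp shares 5.16% of its windows with Irgm2, and 162 exonic bases on the same strand. Irgm1 and Iigp1 shared no window with another gene, and Ifi47 shared 0.842%. Tgtp1 overlaps the predicted gene Gm12185 in 223 exonic bases on the same strand, and Ifi47 overlaps Olfr56 in 111, so reads there cannot be assigned to 1 gene.

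Further genes of the IRG family were examined beside these 7. Of 10 on the list 8 could be tested, and 0 were called in any comparison by edgeR. Of the 8, 7 were higher in BTZ+anti-PDL1 than in anti-PDL1 tumours, 8 in BTZ+anti-PDL1 than in isotype tumours and 8 in anti-PDL1 than in isotype tumours, with median log2 fold changes of 0.28, 0.82 and 0.50. DESeq2 called 1 of them, in BTZ+anti-PDL1 against isotype. The medians rested on single tumours. The median of 0.28 was -0.0041 without BTZ+anti-PDL1 replicate 3, that of 0.82 was 0.41 without isotype replicate 2 and 1.48 without isotype replicate 3, and that of 0.50 was 0.13 and 1.07 without the same isotype tumours. Irgq, an IRG-related gene that is not known as interferon-inducible, measured 41.3 ± 2.15 CPM in BTZ+anti-PDL1, 41.9 ± 3.05 in anti-PDL1 and 38.1 ± 2.76 in isotype tumours (SD, n = 3 each). The gene 9930111J21Rik2 measured 9.75 ± 1.53, 9.03 ± 0.0787 and 5.47 ± 1.34 CPM in the same groups, a log2 fold change of 0.83 ± 0.194 for BTZ+anti-PDL1 against isotype (edgeR adjusted p = 0.34). Gm4951 measured 6.76, 4.43 and 13.7 CPM in BTZ+anti-PDL1 tumours, 6.50, 6.24 and 5.95 in anti-PDL1 tumours, and 3.10, 1.14 and 6.43 in isotype tumours.

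The guanylate-binding proteins (GBPs), another family of interferon-induced GTPases that acts on the same vacuoles, followed the tumours in the same order at both ends. Their sum was 431, 307 and 517 CPM in BTZ+anti-PDL1 tumours, 327, 359 and 334 in anti-PDL1 tumours, and 211, 92.5 and 351 in isotype tumours. All 12 tested entries had positive log2 fold changes in the 3 comparisons, with medians of 0.28 for BTZ+anti-PDL1 against anti-PDL1, 1.02 for BTZ+anti-PDL1 against isotype and 0.74 for anti-PDL1 against isotype, and edgeR and DESeq2 called 0. Here too the medians rested on single tumours. The median of 0.28 was 0.043 without BTZ+anti-PDL1 replicate 3 and 0.49 without replicate 2 of that group. That of 1.02 was 0.64 without isotype replicate 2 and 1.59 without isotype replicate 3, and that of 0.74 was 0.32 and 1.26 without the same isotype tumours. Gbp2, the most abundant, averaged 171 ± 42.9 CPM in BTZ+anti-PDL1, 143 ± 9.91 in anti-PDL1 and 90.6 ± 51.6 in isotype tumours. By the same groups Gbp7 averaged 62.4 ± 19.0, 51.8 ± 5.25 and 34.2 ± 19.4 CPM.

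By Pearson correlation across the 9 tumours, the genes with levels most like the IRG mean included 4 GBPs. The Pearson correlation of log2 CPM was 0.988 for Gbp2, 0.987 for Gbp5, 0.983 for Gbp7 and 0.981 for Gbp6, and 0.989 for Plbd1 and 0.982 for Serpina3g. The Spearman correlations of these 6 genes ran from 0.767 to 0.933. These genes were picked for their likeness out of 12288, of which 203 reached 0.9, so no p is given. Without isotype replicates 2 and 1, the tumours farthest from the median, the Pearson correlation was 0.925 for Gbp2, 0.913 for Gbp7, 0.886 for Gbp5, 0.880 for Plbd1, 0.833 for Gbp6 and 0.760 for Serpina3g. Other measures of likeness gave another order. Oasl2, a type I interferon target, had a Pearson correlation of 0.866, a Spearman correlation of 1, and 0.973 without these tumours. Without them the Pearson correlation was 0.807 and 0.559 for the type I targets Bst2 and Ifit2. It was 0.381, 0.531 and 0.369 for the class II genes Cd74, H2-Ab1 and H2-Aa.

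Upstream of the IRG genes, interferon-gamma acts through a receptor, the kinases JAK1 and JAK2, and further factors such as IRF1. Ifng itself had 20, 19 and 11 counts in BTZ+anti-PDL1 tumours, 6, 11 and 8 in anti-PDL1 tumours, and 4, 0 and 5 in isotype tumours. The counts are few, but the combination tumours lay above all isotype tumours, and a 0 in 1 library allows up to 3 counts. The log2 fold change of Ifng was 1.06 ± 0.627 against anti-PDL1 and 2.43 ± 0.708 against isotype for BTZ+anti-PDL1 (edgeR adjusted p = 0.492 against isotype). Irf1 averaged 96.7 ± 17.5 CPM in BTZ+anti-PDL1, 81.5 ± 8.69 in anti-PDL1 and 66.9 ± 14.7 in isotype tumours. Of the 9 relay genes 6, 8 and 7 were higher in BTZ+anti-PDL1 against anti-PDL1, BTZ+anti-PDL1 against isotype and anti-PDL1 against isotype, with median log2 fold changes of 0.16, 0.27 and 0.12 and 0 calls by edgeR and by DESeq2. Without BTZ+anti-PDL1 replicate 1 the median of 0.27 was 0.15, without anti-PDL1 replicate 3 that of 0.16 was 0.11, and without isotype replicate 3 that of 0.12 was 0.19. Jak1 had 317 ± 8.43 CPM in BTZ+anti-PDL1, 339 ± 22.8 in anti-PDL1 and 341 ± 3.51 in isotype tumours.

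Targets that lean towards interferon-gamma include the class II antigen presentation genes. Of 17 tested, 14, 16 and 17 were higher in the 3 comparisons in the order above, with median log2 fold changes of 0.25, 0.83 and 0.47 and 0 calls by edgeR. DESeq2 called 1, in BTZ+anti-PDL1 against isotype. The median of 0.25 was 0.15 without BTZ+anti-PDL1 replicate 1 and 0.45 without replicate 2 of that group. That of 0.83 was 0.45 without isotype replicate 2 and 1.44 without isotype replicate 3, and that of 0.47 was 0.20 and 1.16 without the same isotype tumours. Cd74, the class II invariant chain, averaged 315 ± 87.4 CPM in BTZ+anti-PDL1, 267 ± 60.3 in anti-PDL1 and 176 ± 125 in isotype tumours. Targets that lean towards type I interferon had their larger medians in both BTZ+anti-PDL1 comparisons. Of 20 tested, 20, 20 and 14 were higher, with median log2 fold changes of 0.81 for BTZ+anti-PDL1 against anti-PDL1, 0.94 for BTZ+anti-PDL1 against isotype and 0.18 for anti-PDL1 against isotype. At an unadjusted p under 0.05 there were 17, 19 and 0 of the 20, against the 3.15%, 4.42% and 3.01% of all genes given above, and edgeR called 0 in each comparison. DESeq2 called 9 of the 20 in BTZ+anti-PDL1 against anti-PDL1, 13 in BTZ+anti-PDL1 against isotype and 0 in anti-PDL1 against isotype. Leaving out 1 tumour gave medians of 0.69 to 0.96, 0.76 to 1.09 and 0.050 to 0.25, the lowest of the last range without isotype replicate 2. Oasl2, a member of the oligoadenylate synthetase-like family, averaged 60.7 ± 17.6 CPM in BTZ+anti-PDL1, 37.9 ± 1.73 in anti-PDL1 and 32.5 ± 11.3 in isotype tumours. Stat2, which with IRF9 carries the type I signal to ISREs, measured 89.6, 84.3 and 111 CPM in BTZ+anti-PDL1 tumours, 69.2, 64.1 and 65.1 in anti-PDL1 tumours, and 63.9, 47.5 and 62.4 in isotype tumours. Its log2 fold change was 0.52 ± 0.131 against anti-PDL1 and 0.71 ± 0.131 against isotype for BTZ+anti-PDL1 (edgeR adjusted p = 0.606 and 0.193). Ifnb1, a type I interferon, was under the filter with 0, 0 and 0 counts in BTZ+anti-PDL1 tumours, 2, 0 and 3 in anti-PDL1 tumours, and 1, 2 and 0 in isotype tumours.

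**Figure D5:**
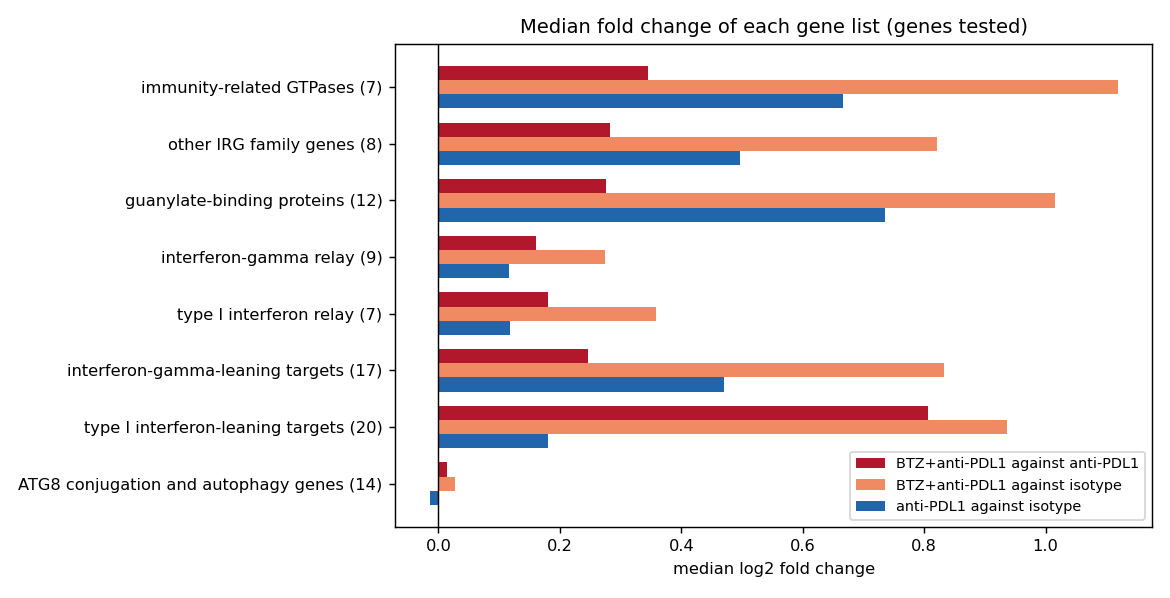
Median log2 fold change (horizontal axis) of the 7 IRG genes and of 7 gene lists (rows, number of genes tested in brackets) in the 3 comparisons, shown as bars from 0 with no error. The IRG, GBP and interferon-gamma-leaning lists have larger medians against isotype than in BTZ+anti-PDL1 against anti-PDL1, the type I-leaning list has medians of 0.81 and 0.94 in both BTZ+anti-PDL1 comparisons, and the ATG8 list lies near 0.

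The ATG8 conjugation machinery steers IRG and GBP proteins to vacuoles in mouse cells. A list of 14 genes, made of this machinery and of other autophagy genes such as Sqstm1, showed small differences. These 14 genes summed to 1059 to 1132 CPM in BTZ+anti-PDL1, 1083 to 1118 in anti-PDL1 and 1035 to 1180 in isotype tumours. The median log2 fold changes were 0.014, 0.027 and -0.015 in the 3 comparisons, 0 genes were called by edgeR or DESeq2, and 0 had an unadjusted p under 0.05 in edgeR. Leaving out 1 tumour moved the first of these medians between -0.0082 and 0.048 and the last between -0.040 and 0.018, across 0 in both cases. Sqstm1, the autophagy receptor p62, averaged 376 ± 9.65 CPM in BTZ+anti-PDL1, 387 ± 24.2 in anti-PDL1 and 402 ± 43.5 in isotype tumours.

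Summed markers of other cell types are given here beside the IRG levels. The 10 T cell markers summed to 40.1, 24.7 and 38.9 CPM in BTZ+anti-PDL1 tumours, 30.3, 31.4 and 26.3 in anti-PDL1 tumours, and 22.0, 5.54 and 30.8 in isotype tumours. Isotype replicate 2, the lowest tumour for all 7 IRG genes, was also the lowest for T cell, macrophage, NK and cytotoxic, and dendritic cell markers. It was not the lowest for neutrophil or endothelial markers. The 10 macrophage markers summed to 2635 to 3740 CPM in BTZ+anti-PDL1, 3272 to 3371 in anti-PDL1 and 1920 to 3486 in isotype tumours. BTZ+anti-PDL1 replicate 3, the highest tumour for the IRG genes, had the lowest macrophage sum of its group. The largest part of the macrophage sum was Lyz2, at 1107 to 2356 CPM over all tumours. This sum therefore does not describe the macrophage markers as a set. The 7 NK and cytotoxic markers summed to 35.1 to 42.2 CPM in BTZ+anti-PDL1, 26.5 to 31.9 in anti-PDL1 and 22.5 to 27.9 in isotype tumours. The 7 dendritic cell markers summed to 17.4 to 24.8 CPM in BTZ+anti-PDL1, 16.7 to 21.9 in anti-PDL1 and 11.4 to 18.9 in isotype tumours. In BTZ+anti-PDL1 against isotype 4 of these 7, and 4 of the 7 NK and cytotoxic markers, were higher at an unadjusted p under 0.05 in edgeR, against 4.42% of all genes. In that comparison 5 of 6 endothelial and 3 of 5 tested neutrophil markers were lower at that level. The share of all genes that were lower at that level was not counted. The sum of the 6 neutrophil markers was lower without overlap in BTZ+anti-PDL1 tumours (32.4 to 63.1 CPM) than in anti-PDL1 tumours (70.6 to 96.6 CPM). In isotype tumours it was 44.7 to 104 CPM. The median log2 fold change of the 5 neutrophil markers tested was -0.96 in BTZ+anti-PDL1 against anti-PDL1. The 6 endothelial markers summed to 126 to 156 CPM in BTZ+anti-PDL1, 159 to 205 in anti-PDL1 and 159 to 244 in isotype tumours. The 6 fibroblast markers summed to 7854 to 8066 CPM in BTZ+anti-PDL1, 8900 to 11792 in anti-PDL1 and 7668 to 9377 in isotype tumours. Both sums were thus lower without overlap in BTZ+anti-PDL1 than in anti-PDL1 tumours. All 6 endothelial markers were lower in that comparison, 3 of them without overlap. Of the 6 fibroblast markers 3 were higher and 3 lower, 1 of them without overlap, with a median log2 fold change of -0.13. The largest part of the fibroblast sum was Col3a1, at 5036 to 8282 CPM over all tumours, so this sum does not describe the fibroblast markers as a set. The 6 red blood cell markers summed to 29.0 to 196 CPM in BTZ+anti-PDL1, 45.3 to 88.8 in anti-PDL1 and 136 to 268 in isotype tumours. This sum, and each of the 6 markers, was lower without overlap in anti-PDL1 than in isotype tumours. The share of all genes lower without overlap was not counted. Summed markers of keratinocytes and of adipocytes were both highest in isotype replicate 3, with 103 CPM for adipocytes. In edgeR 0 of the markers of immune, endothelial, fibroblast and red blood cells were called in any comparison. The part of these cells in the IRG levels was not tested. Without the 3 tumours richest in muscle RNA (replicate 1 of BTZ+anti-PDL1, replicate 1 of anti-PDL1 and replicate 3 of isotype) the median log2 fold change of the 7 genes was 0.35 for BTZ+anti-PDL1 against anti-PDL1, 1.79 for BTZ+anti-PDL1 against isotype and 1.26 for anti-PDL1 against isotype.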

How the data were processed

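Counts per gene were deposited as whole numbers, not normalised, per the file headers. The FPKM columns, also the authors' own, equalled count over column total over a length per gene, and served only to order genes. Per the submitters' processing notes, HISAT2 2.0.4, StringTie 1.3.3b and mm10 were used, in roles not given there. The counting tool, annotation and strand setting are not given in the sources used here.

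The counts of all 9 tumours entered 1 edgeR model of 3 group means (version 4.0.16, R 4.3.3, TMM scaling, robust quasi-likelihood F test, 6 residual degrees of freedom). Of 34745 genes 13060 had no count, and 14506 passed filterByExpr (minimum count 10). Calls are at an adjusted p under 0.05 (Benjamini-Hochberg over all genes tested). The SE is the size of the log2 fold change over the root of F, with a median of 0.138 over all genes. Scripts were tested on simulated data. Correlations used log2 CPM with a prior count of 2.

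Alternatives were DESeq2 1.42.0, RLE scaling, no filter, only the 6 tumours compared, a test against a log2 fold change of 0.3, the replicate number as a block, Tgtp1 and Tgtp2 summed, and leaving out each tumour or the 3 richest in muscle RNA. The members and lists were chosen with earlier results of these data known. Named genes were all members, the 3 most abundant tested genes of each list, Ifng, Ifnb1 and Irf1, and the 6 genes most like the members (mean of at least 1 CPM, no predicted loci). Of these, some are given by their list only, and 1 further gene of the rule is not reported here. Groups follow the treatment label. Replicates are separate tumours, and columns of BTZ+anti-PDL1 were matched by treatment and replicate number. Promoters came from RefSeq (GRCm38.p6), and transcripts from GENCODE M21. Protein sequences were not used here.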

Additional observations from a re-analysis of the deposited data

How the results depend on the processing

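The number of the 7 IRG genes called was 0 in each comparison under all 17 alternatives, leaving out each tumour included (0 to 0). Their lowest adjusted p over the alternatives was 0.348 for BTZ+anti-PDL1 against anti-PDL1 (Igtp), 0.0956 for BTZ+anti-PDL1 against isotype (Irgm1, DESeq2) and 0.255 for anti-PDL1 against isotype (Tgtp2). In 1 case the direction reversed: Tgtp2 in BTZ+anti-PDL1 against anti-PDL1 was -0.023 on the log2 scale without BTZ+anti-PDL1 replicate 3, the low end of a range up to 0.359 (without replicate 1 of that group). The cause was not tested. Over all genes DESeq2 called 62, 107 and 15, against 2, 1 and 2 by edgeR, in the order of comparisons BTZ+anti-PDL1 against anti-PDL1, BTZ+anti-PDL1 against isotype, anti-PDL1 against isotype. Leaving out 1 tumour gave 1 to 7, 0 to 20 and 1 to 4. Analysing only the 6 tumours compared gave 12, 0 and 3, and in these fits 3, 0 and 0 IRG genes had an unadjusted p under 0.05.

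The deviations of same-numbered tumours from their group means had r from -0.434 to 0.393 over 9 pairs, and those of differently numbered tumours from -0.416 to 0.581. With 3 tumours a group this cannot tell whether the numbers stand for a shared factor. The main model did not pair the samples. With the replicate block 0 IRG genes were called in each comparison, 0, 7 and 2 had an unadjusted p under 0.05, and the median log2 fold change was 0.32, 1.23 and 0.89. Over all genes 1, 0 and 1 were called with the block. The SE of the IRG genes, 0.293 to 0.549, limits what 3 tumours a group can show, since the median SE over all genes was 0.138. It rests on 1 spread estimate per gene for all 3 groups, which took in the isotype tumours, where these genes varied most.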
